A study of Mus musculus with 8 samples.

Results

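The 36 autophagy and lysosome genes described here cover the protein machinery that builds autophagosomes, the receptors that load them, and the membrane proteins, enzymes and transcription factors of the lysosome. They were taken by symbol from a list of names, and all 36 were found among the 55573 genes of the count table. All 36 also passed the filter on low counts, which left 17411 genes for testing. Their RNA was measured by bulk RNA sequencing of hearts from male C57BLKS/J mice, 24 weeks of age, in 4 libraries of genotype db/m and 4 of genotype db/db. The db/db mouse, homozygous for a loss of leptin receptor signalling, becomes obese and diabetic, and the heterozygous db/m mouse is its usual non-diabetic control. The labels name no treatment, and they leave unsaid whether the libraries of a group stem from different animals. The p-values therefore refer to the variation among these 8 libraries, some of which may be technical. The comparison asks whether the cardiac RNA of these genes differs between the genotypes.

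In macroautophagy, a kinase complex around ULK1 or ULK2 starts a membrane sheet, a lipid kinase complex around Beclin 1 marks it, and a pair of conjugation reactions ties proteins of the LC3 and GABARAP families to its lipids. Cargo receptors such as p62 bind both ubiquitin and LC3, the sheet closes around the cargo, and fusion with a lysosome exposes it to cathepsins and other hydrolases. Heart muscle cells hardly divide and depend on this route to clear damaged mitochondria and protein aggregates, and loss of the lysosomal genes Lamp2 or Gaa causes inherited cardiomyopathy. TFEB and TFE3 are transcription factors that drive many genes of both compartments, and p62 and lipid-bound LC3 are themselves degraded in lysosomes, so RNA levels do not give the rate at which cargo is broken down.

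The libraries held 19541757 to 22249911 counts, and values are given as CPM, counts scaled to a common library size, as mean ± SD of 4 libraries. Summed CPM of 10 heart muscle markers ran from 33780 to 41550 in db/m and from 34930 to 42930 in db/db. The labelled tissue is thus borne out by its defining markers, but the sum hides differences among them. In db/m replicate 3, Myl2 was at 117 CPM against 593 to 999 elsewhere, and Myl3 at 758 against 2334 to 4097. Tnni3 had 417 CPM there against 1127 to 1396 elsewhere, while Myh6 was highest there at 20479 CPM. The db/m libraries were not alike. The adipocyte markers summed to 360 and 909 CPM in db/m replicates 1 and 3 and to between 24.5 and 37.4 in the other 6 libraries, and the atrial markers to 1632 and 3887 against 16.0 to 118. Ucp1 and Sln, markers of brown fat and atrial muscle, had 0 counts in every db/db library. Counts were also low in db/m replicates 2 and 4, with 2 and 0 for Ucp1 and 0 and 83 for Sln. In db/m replicates 1 and 3 they were 1765 and 8220 for Ucp1 and 4516 and 1589 for Sln. Nppa and Cidea, from the same marker lists, had counts in every library. Replicate 3 of db/m also stood apart among the autophagy and lysosome genes themselves, so values without it, or without db/m replicates 1 and 3, are given beside results that they move. In bulk tissue, fewer cells of a type and less RNA per cell cannot be told apart.

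The promoters of some of these genes are shown because TFEB and TFE3 bind sequences built on CACGTG, and both factors are among the genes measured. RefSeq windows from 250 bases before to 50 bases after a start of transcription (GRCm38.p6) were at hand for 30 of the 36 genes. There were 35 such windows, and a start can lie inside the gene. The 8-letter sequence GTCACGTG, read on both strands, stood in the windows of 7 of these genes (Atg3, Atg7, Atg14, Lamp1, Mcoln1, Ctsa and Ctsd), or 23.3%, and in 2.55% of the 27025 genes with a window. The core CACGTG, which that sequence contains, stood in 10 of 30 (33.3%) against 8.09% of all genes, and TCACGTGA, which also contains the core, in 4 of 30 (13.3%) against 1.12%. A match is a description of the letters and not evidence of binding. In the stretches below, printed 5′ to 3′ on the strand of the gene, capitals mark CACGTG. Stretches of 30 bases are given where the letters lie within an annotated exon, and otherwise where a single copy is present.
Lamp1, chr8:13159090-13159160, plus strand: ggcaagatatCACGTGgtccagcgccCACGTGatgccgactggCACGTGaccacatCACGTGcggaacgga
Atg3, chr16:45158725-45158773, plus strand: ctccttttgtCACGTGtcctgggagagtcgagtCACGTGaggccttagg
Ctsa, chr2:164833757-164833786, plus strand: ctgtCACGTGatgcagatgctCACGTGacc
Ctsd, chr7:142387908-142387937, minus strand: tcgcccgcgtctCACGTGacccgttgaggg
Mcoln1, chr8:3500462-3500491, plus strand: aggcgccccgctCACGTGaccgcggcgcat
Atg7, chr6:114670952-114670981, plus strand: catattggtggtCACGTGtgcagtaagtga
Atg14, chr14:47568418-47568447, minus strand: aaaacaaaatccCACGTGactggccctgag
Sqstm1, chr11:50210828-50210889, minus strand: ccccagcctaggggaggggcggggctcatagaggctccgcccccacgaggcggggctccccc

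Lamp1 held 4 copies of CACGTG within the 71 bases before its start, the first of them beginning 61 bases and the last 15 bases upstream. Atg3 held 2 copies, beginning 94 and 71 bases before its start, and Ctsa 1 copy on each side of its start. Ctsd held copies beginning 245 and 98 bases before its start, and Mcoln1 copies beginning 71 and 45 bases before. Their printed stretches show only the copies at 98 and 45 bases. All these starts are those of RefSeq. The printed stretches of Atg7, Atg14, Ctsa, Ctsd and Mcoln1 lie inside the gene as annotated for the counts. On the strand of the gene, that annotation begins at 114643097 for Atg7, 47570649 for Atg14 and 164832873 for Ctsa. The Atg7 stretch in particular belongs to an internal start. The Sqstm1 stretch is the longest part of its window outside exons and is shown for contrast, since Sqstm1 had the smallest p of the 36 genes and its window held no CACGTG.

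No autophagy or lysosome gene passed the test between genotypes. By edgeR's quasi-likelihood test with Benjamini-Hochberg adjustment over 17411 genes, 0 of the 36 had an adjusted p under 0.05, where 0.00574% of all genes were called. The same count was 0 with DESeq2 (2.17% of all genes called), 0 with limma-voom (0.747%), 0 by edgeR without db/m replicate 3 (0.600%) and 0 without db/m replicates 1 and 3 (0.256%). An unadjusted p under 0.05 was reached by 2 of the 36 (5.56%), Sqstm1 and Wipi1, both higher in db/db, against 13.0% of all genes (5.12% higher and 7.84% lower). Without db/m replicate 3 there were 5 of 36, all higher, which added Atg13, Ulk2 and Map1lc3a, against 13.2% of all genes, and without db/m replicates 1 and 3 again Sqstm1 and Wipi1 alone, against 10.7%. The log2 fold change of db/db over db/m was positive in 28 members and negative in 8, or 77.8% positive against 47.7% of all genes, and its median was 0.10 against -0.02. That split leaned on the scaling and on db/m replicates 1 and 3. It was 17 to 19, with a median of -0.02, when libraries were scaled by their totals alone. That scaling also moved the median of all genes, to -0.13. Without db/m replicates 1 and 3 the split was 22 to 14, with a median of 0.04, where 9059 of all 17971 genes were positive.

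**Figure D1:**
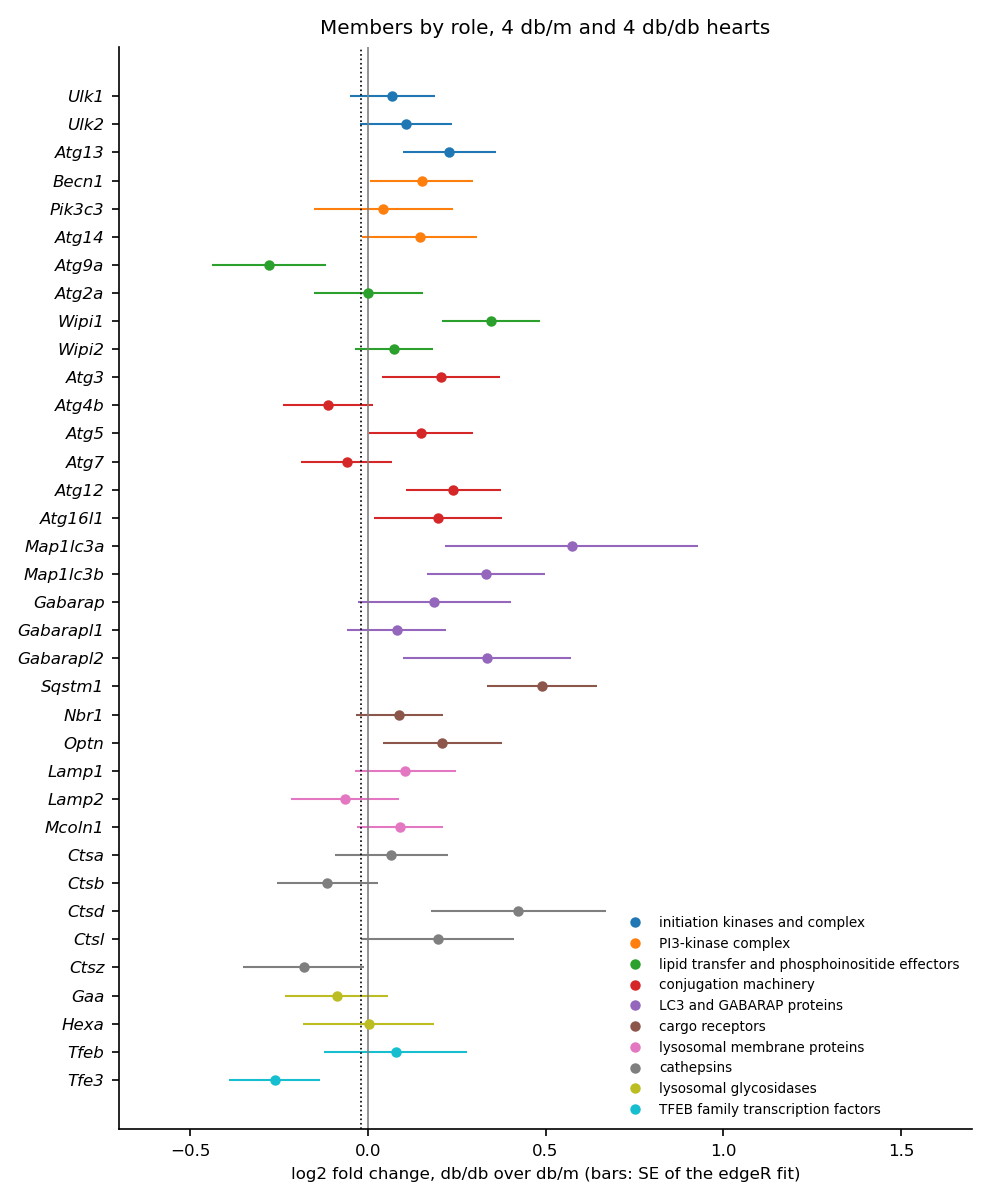
Log2 fold change of db/db over db/m for the 36 genes, grouped by role, with bars for the standard error of the edgeR fit and a dotted line at the median of all genes. Points to the right of 0 number 28. They number 17 if libraries are scaled by their totals alone, which moves the median of all genes to -0.13. The largest values belong to Map1lc3a (0.57) and Sqstm1 (0.49), and the lowest to Atg9a (-0.28) and Tfe3 (-0.26).

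The initiation genes Ulk1, Ulk2 and Atg13 encode both kinases that respond to nutrient supply and the subunit that couples them to the rest of the complex. Atg13 had 55.2, 67.4, 69.8 and 60.3 CPM in db/m replicates 1 to 4 and 76.1, 76.7, 62.1 and 81.3 in db/db replicates 1 to 4. Of the db/db libraries, 3 lay above every db/m library and replicate 3 lay among them, with a log2 fold change of 0.23 (SE 0.13; edgeR, unadjusted p = 0.109, adjusted p = 0.453). Ulk1 had 98.0 ± 11.7 CPM in db/m against 103 ± 4.68 in db/db, a log2 fold change of 0.07, and its direction turned to -0.05 without db/m replicates 1 and 3. Ulk2 had 112 ± 16.0 and 120 ± 7.26 CPM. Its db/m spread came mostly from replicate 3, the highest of all 8 libraries at 135 CPM, while the other 3 db/m libraries (99.1, 106 and 106 CPM) lay below all db/db libraries (112 to 129). Without db/m replicate 3 the log2 fold changes of Atg13 and Ulk2 were 0.29 and 0.22, with unadjusted p = 0.0311 and 0.0376 and adjusted p = 0.325 and 0.344 by edgeR.

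The lipid kinase complex makes phosphatidylinositol 3-phosphate on the forming membrane. Its catalytic subunit Pik3c3 had 11.8 ± 2.64 CPM in db/m against 12.1 ± 1.78 in db/db. The scaffold Becn1 (Beclin 1) had 23.1 ± 3.47 and 25.7 ± 2.16, and Atg14, the subunit that directs the complex to autophagy, had 13.9 ± 2.48 and 15.3 ± 1.26. The log2 fold changes were 0.04 (SE 0.20), 0.15 (SE 0.15) and 0.15 (SE 0.16), and the groups overlapped in all 3 genes. They were 0.19, 0.05 and 0.22 without db/m replicate 3. Pik3c3 varied among db/m libraries from 8.57 to 15.01 CPM, a range that held every db/db library.

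Among the genes that feed lipid to the growing membrane or read its phosphoinositides, Wipi1 and Atg9a pointed opposite ways. Wipi1 (ENSMUSG00000041895, chromosome 11, 109573331 to 109611967, minus strand, mm10), a protein that binds phosphatidylinositol 3-phosphate, had 74.7, 75.5, 96.5 and 91.0 CPM in db/m against 115, 95.4, 98.4 and 120.3 in db/db. The groups met at one point only, where db/m replicate 3 lay just above db/db replicate 2. The log2 fold change was 0.35 (SE 0.14; edgeR, unadjusted p = 0.0301, adjusted p = 0.348), and 0.42 without db/m replicate 3 (adjusted p = 0.149, edgeR). Its close relative Wipi2 had 54.9 ± 4.83 and 57.8 ± 1.80 CPM, a log2 fold change of 0.07 that was 0.14 without db/m replicate 3. Atg9a, the scramblase carried on vesicles that seed the membrane, had 45.5, 55.2, 63.7 and 52.6 CPM in db/m against 53.6, 34.1, 45.9 and 45.3 in db/db, a log2 fold change of -0.28 (SE 0.16; edgeR, adjusted p = 0.456) with overlapping groups, and -0.19 without db/m replicate 3. Atg9a shares 46 exonic bases with Ankzf1 on the other strand. Atg2a, the bridge through which lipid flows, had 39.5 ± 6.34 and 39.5 ± 5.53 CPM, nearly the same mean in both genotypes, with a log2 fold change of 0.10 without db/m replicate 3.

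The conjugation machinery comprises the E1-like Atg7, the E2-like Atg3, the protease Atg4b, and Atg12, Atg5 and Atg16l1, which together form the ligase for LC3. In 4 of the 6 genes the log2 fold change was positive, from 0.15 to 0.24, and none had an unadjusted p under 0.05. Atg12 had 46.0, 54.2, 36.8 and 47.9 CPM in db/m against 56.2, 51.0, 54.7 and 56.4 in db/db, a log2 fold change of 0.24 (SE 0.13), so that db/m replicate 2 reached into the db/db range. That log2 fold change was 0.15 without db/m replicate 3 and 0.09 without db/m replicates 1 and 3. The 3 ligase genes shared a low value in db/m replicate 3. Atg5 had 15.2 CPM there and 21.1 to 22.9 in the other 7 libraries. Atg16l1 had 21.7 CPM there and 30.6 to 41.1 elsewhere, and without that library its log2 fold change went from 0.20 to 0.06 and that of Atg5 from 0.15 to 0.04. The value of Atg16l1 turned to -0.05 without db/m replicates 1 and 3. Atg7, the enzyme at the head of both reactions, lay between 16.5 and 21.3 CPM in db/m and between 17.3 and 19.2 in db/db, with a log2 fold change of -0.06 that turned to 0.04 without db/m replicates 1 and 3. Atg4b had 22.7 ± 1.07 and 21.0 ± 2.21 CPM. Atg3 had 14.8 ± 2.85 and 17.0 ± 1.64 CPM, with overlapping groups and a log2 fold change of 0.20 that was 0.125 without db/m replicate 3.

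The 5 genes of the LC3 and GABARAP families, whose products become anchored in the autophagosome membrane, all had positive log2 fold changes, with a median of 0.33 and no unadjusted p under 0.05, although Gabarapl1 turned to -0.04 under library totals and Gabarap to a value just below 0 without db/m replicate 3. The median was 0.14 without db/m replicate 3 and 0.11 without db/m replicates 1 and 3. Map1lc3a had 329, 382, 91.2 and 346 CPM in db/m against 419, 473, 379 and 437 in db/db. Replicate 3 of db/m was by far the lowest, and the log2 fold change was 0.57 (SE 0.36; edgeR, adjusted p = 0.481) with it and 0.28 (unadjusted p = 0.0251, adjusted p = 0.303) without it. Among the other 7 libraries the groups still touched, db/m replicate 2 lying just above db/db replicate 3. Map1lc3b had 201, 252, 149.6 and 234 CPM in db/m against 264, 287, 246 and 256 in db/db (0.33, SE 0.17; edgeR, unadjusted p = 0.0747, adjusted p = 0.420). Here too db/m replicate 3 was lowest, and the log2 fold change was 0.21 without it and 0.11 without db/m replicates 1 and 3. The GABARAP genes act mainly in later steps of autophagosome growth and closure. Gabarap had 89.6 CPM in db/m replicate 3 and 159.6 to 194 in all other libraries, and Gabarapl2 had 14.8 CPM there and 27.1 to 37.7 elsewhere. The log2 fold change of Gabarapl2 was 0.33 with that library, 0.14 without it and 0.06 without db/m replicates 1 and 3. Gabarapl1 did not share that pattern, with 90.8 to 117 CPM in db/m against 91.2 to 120.2 in db/db, and its log2 fold change of 0.08 was 0.13 and 0.22 in the same fits.

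Per kilobase of exon, Map1lc3a was the most abundant of the family with 243 CPM per kb in db/m against 361 in db/db. Gabarap followed with 85.3 and 97.1 CPM per kb, Gabarapl1 with 52.3 and 55.4, Map1lc3b with 27.8 and 35.1, and Gabarapl2 with 11.6 and 14.7. Over all 36 genes Map1lc3a and Ctsd (222 and 298 CPM per kb) headed this scale, ahead of Lamp1 (159 and 171) and Sqstm1 (109 and 153), and Mcoln1 stood last (2.14 and 2.27). The length used is that of all annotated exons of a gene merged, 7555 bases for Mcoln1 and 1181 for Map1lc3a. Places on this scale thus depend on the annotation as well as on the counts. The places of Gabarapl2 and Map1lc3b are uncertain through pseudogenes as well. For Gabarapl2, 3 near-identical pseudogenes held 10112 counts, 1.98 times the 5095 counts of the gene, nearly all of them in Gm3724 (9970 counts, 99.4% identity). For Map1lc3b, 4 pseudogenes held 19244 counts against 39440, and 18978 of these lay in Gm6055 (99.7% identity). With the pseudogene counts added, the log2 fold change was 0.36 for Map1lc3b and 0.33 for Gabarapl2, close to the values without them.

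Sqstm1, the gene of the ubiquitin receptor p62, had the largest log2 fold change of the 3 cargo receptors and was the single member whose groups did not overlap (1 of 36, 2.78%, against 9.65% of all genes tested). Sqstm1 (ENSMUSG00000015837, chromosome 11, 50199366 to 50210827, minus strand, mm10) had 345, 398, 302 and 419 CPM in db/m against 509, 577, 427 and 543 in db/db. Its highest db/m library, replicate 4, lay just below the lowest db/db library, replicate 3. The mean went from 366 ± 52.8 to 514 ± 64.2 CPM, a log2 fold change of 0.49 (SE 0.15; edgeR, unadjusted p = 0.00997, adjusted p = 0.296). It was the gene with rank 580 of 17411 by p. Across 19 alternative analyses the log2 fold change of Sqstm1 ran from 0.33 to 0.57 and its adjusted p from 0.0733 (DESeq2) to 0.542. Nbr1, a receptor with a similar domain layout that often binds p62, had 132 ± 16.1 and 140.1 ± 4.91 CPM, a log2 fold change of 0.09 that was 0.17 without db/m replicate 3. Optn (optineurin), a receptor in the removal of damaged mitochondria, had 69.1, 105, 66.9 and 87.9 CPM in db/m against 102, 80.9, 106 and 90.8 in db/db, a log2 fold change of 0.21 (SE 0.17) with overlapping groups, which was 0.13 without db/m replicate 3 and turned to -0.03 without db/m replicates 1 and 3. Within each library the ratio of Sqstm1 to Nbr1 counts was 3.07, 3.10, 1.99 and 3.10 in db/m against 3.47, 4.23, 3.13 and 3.85 in db/db. This pair was chosen after its values were seen, so the ratio is a description without a test.

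**Figure D2:**
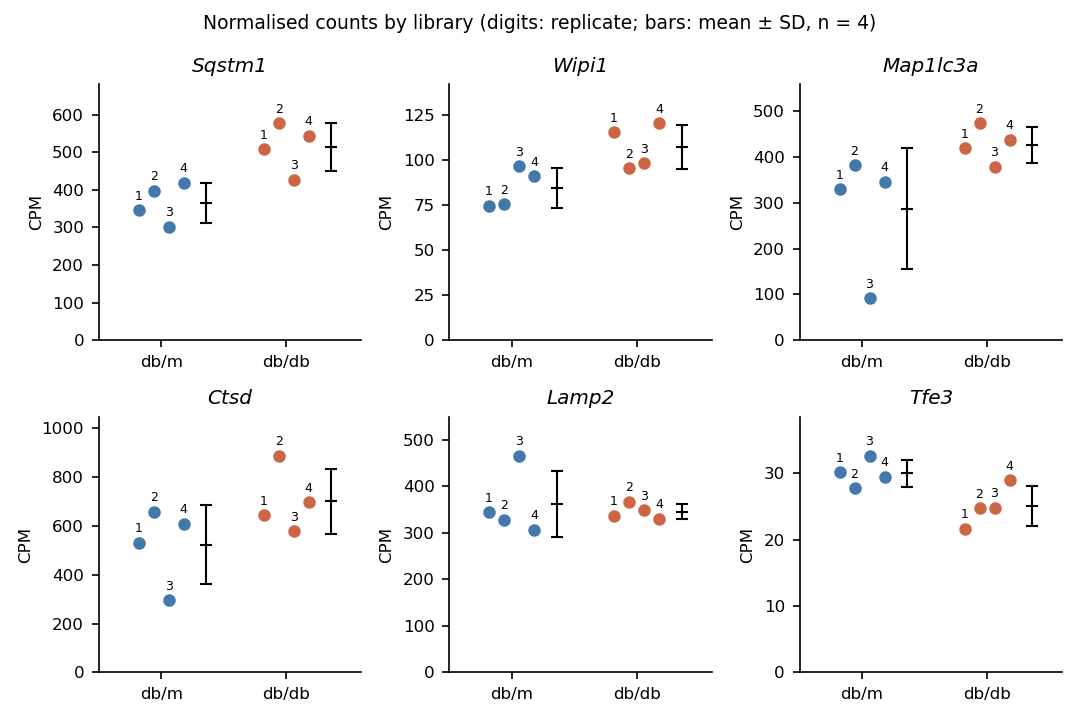
CPM of 6 genes in each library, with db/m in blue, db/db in red, digits for the replicate and bars for the mean ± SD of 4 libraries. The Sqstm1 groups do not overlap, the Map1lc3a and Ctsd values of db/m replicate 3 lie far below all others, and its Lamp2 value lies above all others.

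The genes of lysosomal membrane proteins had small differences. Lamp1 and Lamp2 coat the inner face of the lysosomal membrane, and Lamp2 is also needed for fusion with autophagosomes and for import of single proteins. Lamp1 had 425 ± 61.5 CPM in db/m against 457 ± 26.4 in db/db, and Lamp2 had 361 ± 71.2 and 345 ± 16.1, with log2 fold changes of 0.11 and -0.06 that lay within their SE of 0.14 and 0.15. Replicate 3 of db/m was the lowest of 8 libraries for Lamp1 (338 CPM) and the highest for Lamp2 (465 CPM). The log2 fold change of Lamp2 turned to 0.09 without that library and to 0.12 without db/m replicates 1 and 3, while Lamp1 had 0.02 and -0.03. Mcoln1, a calcium channel that signals from the lysosome, was the steadiest of the 3, with 15.1 to 17.3 CPM in db/m against 16.3 to 18.1 in db/db (log2 fold change 0.09, and 0.03 without db/m replicates 1 and 3).

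The cathepsins, proteases of the lysosomal lumen, had fold changes of either sign. Ctsd, an aspartyl protease, had 529.8, 657, 294 and 608 CPM in db/m against 643, 886, 577 and 695 in db/db. Its range in db/m was widened by replicate 3 and its range in db/db by replicate 2, and the groups overlapped (log2 fold change 0.42, SE 0.25; edgeR, adjusted p = 0.458). Without db/m replicate 3 it was 0.23, and 0.14 without db/m replicates 1 and 3. The cysteine protease Ctsl had 122 ± 31.6 and 139 ± 27.8 CPM (0.20), with 76.8 CPM in db/m replicate 3 and 179.8 in db/db replicate 2 at either end. Its log2 fold change was 0.03 without db/m replicate 3 and 0.02 without db/m replicates 1 and 3. Ctsa, a carboxypeptidase that also protects other hydrolases, had 57.8 ± 11.7 and 60.4 ± 3.09 CPM, and its log2 fold change of 0.07 turned to -0.06 without db/m replicate 3 and -0.12 without db/m replicates 1 and 3. It shares 495 exonic bases with Pltp and 324 with Neurl2, both on the other strand.

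Ctsb and Ctsz, cysteine cathepsins that macrophages express strongly, had negative log2 fold changes of -0.11 (SE 0.14) and -0.18 (SE 0.17). They were -0.19 and -0.14 without db/m replicate 3, and -0.195 and -0.02 without db/m replicates 1 and 3. Ctsb had 556, 563, 421 and 521 CPM in db/m against 440.1, 501, 522 and 441 in db/db. Ctsz had 48.0, 34.4, 44.7 and 40.1 CPM in db/m against 29.2, 43.9, 42.7 and 31.6 in db/db. In both genes db/db replicates 1 and 4 were lower than db/db replicates 2 and 3. The summed CPM of 10 macrophage markers had the same division within db/db, with 533, 956, 1184 and 384.5 in replicates 1 to 4. It stood at 908, 841, 525 and 732 in db/m. The markers disagreed in db/m replicate 3, where Lyz2, C1qa, C1qb, C1qc and Cd68 were the lowest of db/m. Adgre1 (29.9 CPM), Csf1r (107), Mrc1 (79.6) and Lgals3 (15.1) were the highest of db/m there. Of the 10 markers 0 had an unadjusted p under 0.05 and none was at 0 in all libraries, and the part of macrophages in the values of Ctsb and Ctsz was not tested.

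The glycosidases Gaa, which breaks down glycogen in lysosomes, and Hexa, a subunit that trims gangliosides, did not differ between genotypes beyond their spread. Gaa had 158, 178, 184.8 and 170.1 CPM in db/m against 172, 180.2, 123 and 174 in db/db, so that db/db replicate 3 alone lay below the db/m range. Its log2 fold change was -0.09 (SE 0.14), and 0.03 without db/db replicate 3. Without db/m replicate 3 it was -0.05. Hexa had 32.0 ± 6.99 CPM in db/m against 32.0 ± 5.47 in db/db, and its log2 fold change of 0.00242 turned to -0.11 without db/m replicate 3.

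Of both transcription factors of the lysosomal gene program, Tfe3 had the lower values in db/db. Tfe3 (chromosome X, 7762560 to 7775202, plus strand, mm10) had 30.2, 27.7, 32.7 and 29.5 CPM in db/m against 21.6, 24.7, 24.8 and 29.0 in db/db, where only db/db replicate 4 reached into the db/m range. Its log2 fold change was -0.26 (SE 0.13; edgeR, unadjusted p = 0.0671, adjusted p = 0.414), and it was -0.09 once each library's dependence on gene length was taken out. Tfeb had 37.7, 40.8, 20.6 and 35.3 CPM in db/m against 36.8, 32.3, 32.3 and 40.5 in db/db, and its log2 fold change of 0.08 turned to -0.09 without db/m replicate 3. Among the 7 genes with GTCACGTG in the promoter window 0 had an unadjusted p under 0.05, where 13.0% of all genes did. With so few genes, a count of 0 does not set them apart from that share. The median log2 fold change of the 7 was 0.11, and it was 0.08 over the other 23 genes with a window. The 7 ran from -0.06 (Atg7) to 0.42 (Ctsd), and from -0.12 (Ctsa) to 0.26 (Atg3) without db/m replicates 1 and 3.

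Replicate 3 of db/m lay at an end of the range in most of these genes. It was the lowest of the 8 libraries in 19 of the 36 and the highest in 10, so that 29 had it at an extreme. The library next in this count, db/db replicate 2, was at an extreme in 13. The genes in which db/m replicate 3 was lowest had a median exon length of 3753 bases, and those in which it was highest 6919.5 bases. The deviation of db/m replicate 3 from the mean of all other libraries had a Spearman correlation with exon length of 0.36 across the 36 genes. Across all 17411 tested genes the correlation was 0.46. The opposite tilt was found in db/db replicate 2, with -0.51 across the 36 genes and -0.34 across all tested genes. In the remaining libraries the values ran from -0.29 to 0.061 across the 36 genes and from -0.22 to -0.018 across all tested genes. These are descriptions over genes that share a library. The sum of all 36 genes was 4425, 4864, 3680 and 4649.7 CPM in db/m against 4910.5, 5438, 4748 and 4989 in db/db, with db/m replicate 3 again lowest and the groups overlapping at db/m replicate 2.

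**Figure D3:**
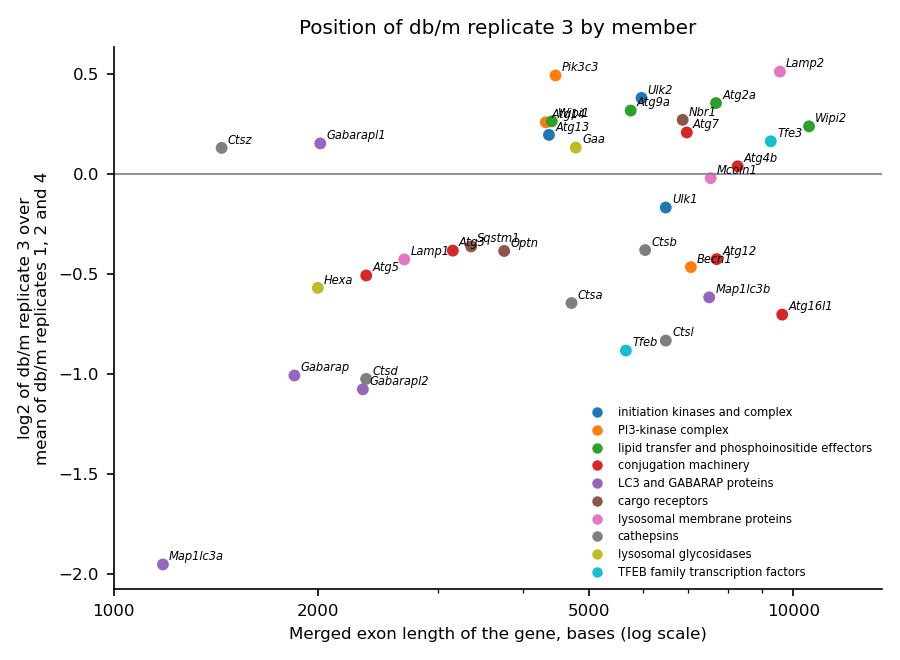
Log2 ratio of the CPM in db/m replicate 3 to the mean of the other 3 db/m libraries, against the merged exon length of each gene in bases on a log scale, with colours for role. The short genes Map1lc3a and Gabarap lie below 0 and the long genes Lamp2 and Wipi2 above it. Many long genes also lie below 0, among them Tfeb (-0.88), Ctsl (-0.83), Atg16l1 (-0.70) and Map1lc3b (-0.62), and the short Ctsz lies above it.

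**Figure D4:**
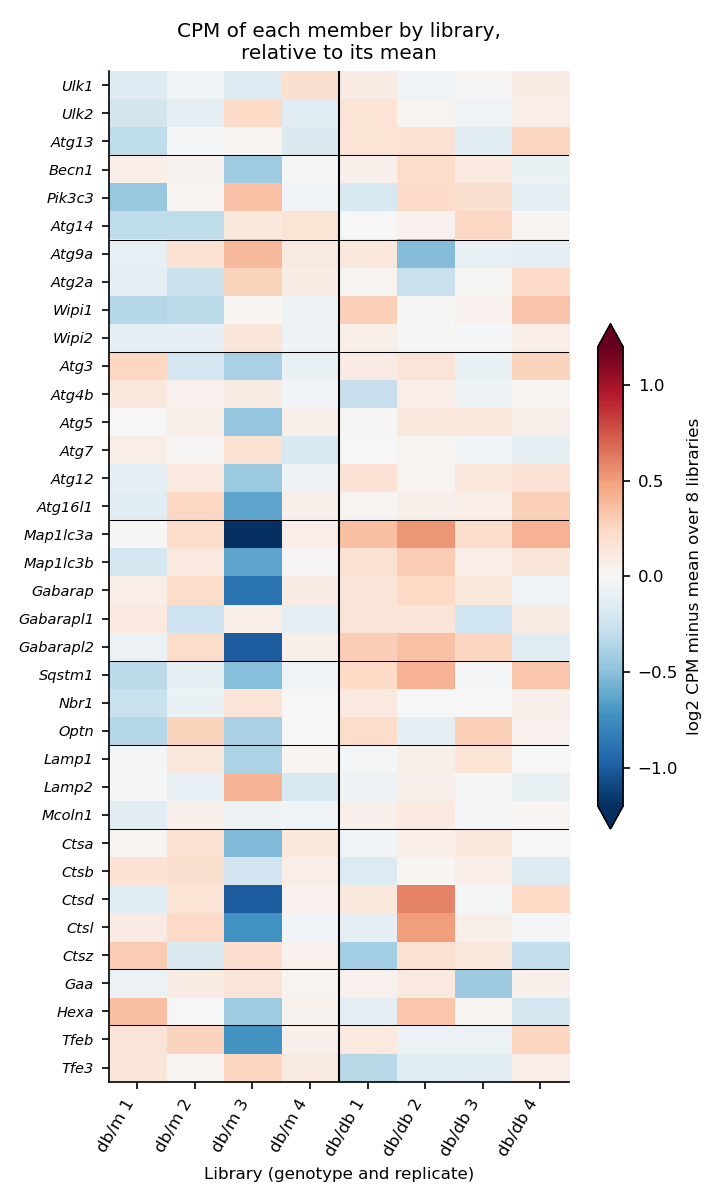
Log2 CPM of the 36 genes in each of the 8 libraries relative to the mean of the gene, with rows in order of role, a vertical line between genotypes, blue for lower and red for higher values. The column of db/m replicate 3 holds the deepest colours, 19 of its cells being the lowest of their row and 10 the highest.

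Beyond these 36 genes, 141 further genes of autophagy and the lysosome were taken in 10 lists. Of these, 0 passed edgeR with Benjamini-Hochberg adjustment, where 0.00574% of all genes did. DESeq2 called 2 of the 141 and limma-voom 1, against 2.17% and 0.747% of all genes. The groups did not overlap in 15 of the 141 (10.6%), against 9.65% of all genes tested. With an unadjusted p under 0.05 there were 15 (10.6%, against 13.0% of all genes), 8 higher and 7 lower, and the median log2 fold change was 0.02. The gene with the smallest p among them was Retreg1, a receptor on the endoplasmic reticulum that binds LC3 and delivers pieces of that organelle to autophagosomes. Retreg1 had 213, 262, 301 and 312 CPM in db/m against 542, 553, 477 and 504 in db/db, so that the lowest db/db library lay far above the highest db/m library. The mean went from 272 ± 44.8 to 519 ± 35.03 CPM, a log2 fold change of 0.93 (SE 0.15; edgeR, unadjusted p = 9.9e-05, adjusted p = 0.102). It passed the threshold without db/m replicate 3 (0.99; edgeR, adjusted p = 0.0123), without db/m replicates 1 and 3 (0.85; adjusted p = 0.0170), with no filter on low counts (adjusted p = 0.0352), in limma-voom (adjusted p = 0.0133) and in DESeq2 (adjusted p = 2.26e-06). In the other 14 alternatives it did not pass, with an adjusted p of up to 0.359, while its log2 fold change stayed between 0.82 and 1.02 in all 19.

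The genes named from each list are those with the smallest unadjusted p, so their values are the extremes of their lists. Atg101, which steadies Atg13 in the initiation complex, had 14.0, 14.8, 11.04 and 15.7 CPM in db/m against 18.8, 23.9, 20.6 and 22.3 in db/db without overlap, a log2 fold change of 0.62 (SE 0.15; edgeR, adjusted p = 0.206). It passed in DESeq2 (adjusted p = 0.0159) and in none of the other 18 alternatives, where the adjusted p reached 0.508. Other genes of the initiation list at an unadjusted p under 0.05 were Tmem41b, a scramblase of the endoplasmic reticulum (-0.31, and -0.33 without db/m replicate 3), and Bcl2, which holds Beclin 1 inactive (-0.58). The Bcl2 level of db/m replicate 3, 44.2 CPM, stood above the 20.1 to 24.5 CPM of the rest of its group, and without that library the difference was -0.26 (edgeR, unadjusted p = 0.0519). Calcoco1, a receptor for the endoplasmic reticulum and the Golgi, had a log2 fold change of 0.42 (SE 0.13), from 106 ± 16.4 to 142 ± 5.72 CPM, and 0.25 without db/m replicates 1 and 3. Ccpg1, another receptor for the endoplasmic reticulum, had -1.48 (SE 0.53) at low levels of 1.30 ± 0.876 and 0.465 ± 0.165 CPM, and -0.91 (edgeR, unadjusted p = 0.102) without db/m replicate 3.

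Among 14 genes listed under fusion between autophagosome and lysosome, Stx17, the SNARE protein of the autophagosome, had 0.35 (SE 0.13). Bag3, counted in that list, routes damaged muscle proteins to autophagy and is no fusion protein. It had 0.39 (SE 0.15), from 292 ± 41.5 to 382 ± 43.5 CPM. Without db/m replicates 1 and 3, Stx17 and Bag3 had 0.25 and 0.23, with unadjusted p = 0.0508 and 0.0906 by edgeR. Psap, the precursor of the saposins that assist lipid hydrolases, had 957, 1155, 559 and 1115 CPM in db/m against 1240.0, 1519, 1265 and 1443 in db/db. Its groups did not overlap, but db/m replicate 3 was far below the rest, and the log2 fold change of 0.53 was 0.35 without it and 0.26 without db/m replicates 1 and 3 (edgeR, unadjusted p = 0.05275). Tpcn1, an endolysosomal cation channel, had 69.0 ± 7.54 and 52.3 ± 4.50 CPM (-0.40, SE 0.12) without overlap, and -0.30 without db/m replicates 1 and 3. Apart from Sort1, described last, the others at an unadjusted p under 0.05 were Wdr45, a relative of Wipi1 (0.49), and the protease Ctsf (0.52), both higher, and the lipid scramblase relative Atg9b (-0.92) and the sulfatase Sgsh (-0.51), both lower. Without db/m replicate 3, Wdr45 had 0.35 and Sgsh -0.30, with unadjusted p = 0.0540 and 0.0612 by edgeR. Without db/m replicates 1 and 3, Ctsf had 0.34 and Atg9b -0.58, with unadjusted p = 0.0569 and 0.180 by edgeR. Of 16 subunits of the proton pump that acidifies lysosomes 0 had an unadjusted p under 0.05 (median log2 fold change 0.14), and likewise 0 of 20 genes of mTORC1 and its control of TFEB (median 0.11). The pump median was 0.00287 without db/m replicate 3, with 8 subunits positive and 8 negative, and -0.04 without db/m replicates 1 and 3. The mTORC1 median was 0.08 and 0.04 in the same fits.

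**Figure D5:**
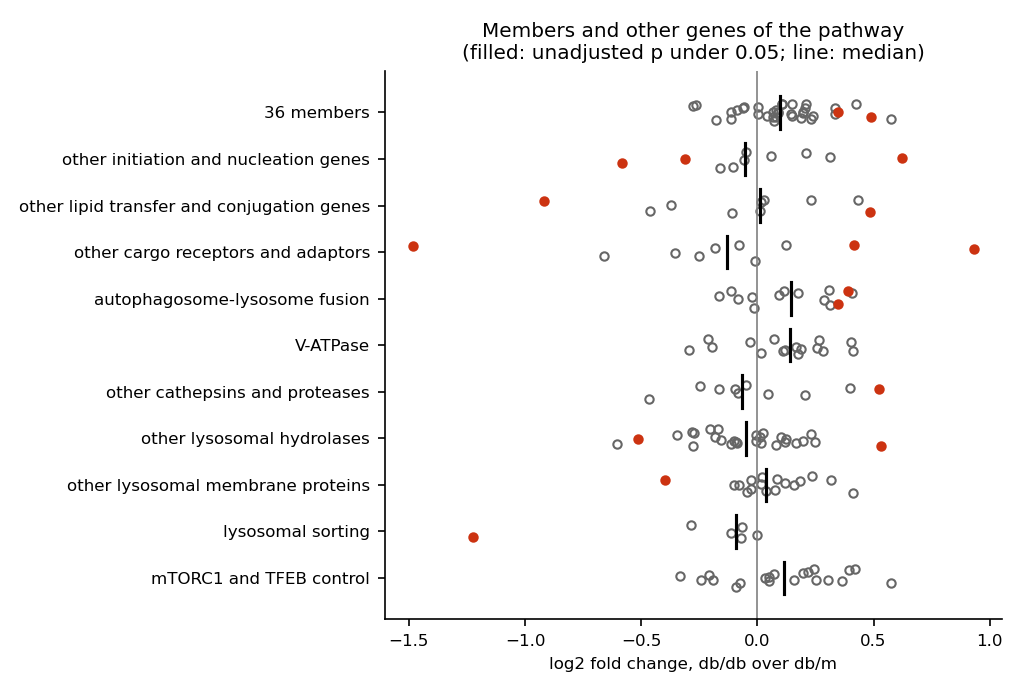
Log2 fold change of db/db over db/m for the 36 genes and for 10 lists of other autophagy and lysosome genes, 1 point per gene, filled red where the unadjusted p of edgeR was under 0.05, with a black line at the median of each list. The 2 filled points of the 36 genes lie to the right of 0, and the rightmost filled point of all is Retreg1 at 0.93.

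Sort1, a sorting receptor for lysosomal proteins, was high in db/m replicates 1 and 3, and its log2 fold change was -1.23 (SE 0.47). It had 113, 53.4, 267 and 51.1 CPM in db/m against 42.6 to 56.7 in db/db, and its log2 fold change was -0.02 without db/m replicates 1 and 3. The summed adipocyte markers were 360, 29.3, 909 and 27.4 CPM in the same 4 db/m libraries, and of the 8 markers 2 passed the low-count filter. The summed atrial markers were likewise high in db/m replicates 1 and 3, with 1632, 16.0, 3887 and 89.8 CPM in db/m replicates 1 to 4. The parts of adipose and atrial tissue in the Sort1 values were not tested, and the same libraries were high in both.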

How the data were processed

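The authors deposited raw counts per Ensembl gene and library, whole numbers without normalisation, per the file headers. The submitters' processing notes name mm10 as the build. Neither the aligner and counter nor the annotation release and strand setting were given in the sources used. The labels' protocols name a NEBNext Ultra kit. Without a stated strand, genes that overlap on opposite strands are uncertain, as are genes with near-identical pseudogenes (at least 95.0% identity across a fraction of 0.5 or more of the pseudogene). Besides Atg9a and Ctsa, the former include Becn1 (3104 exonic bases shared with Cntd1, which had 9 counts) and Ctsb (774 with Fdft1, 4593 counts). They also include Sqstm1 (580 with Mrnip, 35 counts) and Map1lc3b (58 with Zcchc14, 18509 counts).

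Symbols came from GENCODE M21 by Ensembl identifier. In edgeR 4.0.16 (R 4.3.3), genes were filtered with filterByExpr (minimum count 10, minimum total 15), libraries were scaled by TMM factors, and genotype was tested as the single factor by the two-sided quasi-likelihood test with a robust dispersion fit. P-values were adjusted by Benjamini-Hochberg over 17411 genes, with a threshold of 0.05. A positive log2 fold change is higher in db/db, and the SE is that of the fit. Libraries of one genotype differed by more than sampling noise in every pair. The scripts were tested on simulated data.

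The members and gene lists were chosen with earlier results of these data known. All 36 members could be named, and of each wider list up to 3 genes with the smallest unadjusted p. Promoter windows are those of RefSeq for GRCm38.p6. As alternatives, DESeq2 1.42.0 and limma-voom (limma 3.58.1, with quality weights per sample), other scalings and filters, a replicate block, pseudogene counts added and fits that left out libraries were run. A fit with the dependence of each library on gene length removed was chosen after seeing the data.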

Additional observations from a re-analysis of the deposited data

Results flagged for a closer look

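In 3 of the 72 groups of 4 libraries (36 genes in 2 genotypes), a single library stood apart from the others by more than Dixon's critical value at the 95% level, and chance gives about 1 in 20 groups. Atg5 had 15.2 CPM in db/m replicate 3, the lowest of its group, against 21.1 to 21.99 in the other 3. Atg16l1, which joins the same ligase, had 41.1 CPM in db/db replicate 4, the highest of its group, against 34.4 to 35.5. Gaa, the lysosomal glucosidase, had 123 CPM in db/db replicate 3, the lowest of its group, against 172 to 180.2.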

How the results depend on the processing

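Of the 36 genes, 17 kept their direction in all 19 alternatives and 19 reversed in at least one, and 0 passed adjustment in any (smallest adjusted p = 0.0733, Sqstm1 in DESeq2). The count of all genes that differed, 1 by edgeR with all libraries, was 27 with no low-count filter, 377 with DESeq2, 130 with limma-voom, 46 without db/m replicates 1 and 3, 12 with the gene-length trend removed, and 0 to 106 without any 1 library. Members with an unadjusted p under 0.05 numbered 4 with limma-voom (11.1%, against 14.2% of all genes), where edgeR with all libraries had 2. Without any 1 library they numbered 1 to 5, where 1546 to 2878 of all genes tested were under that p. The median log2 fold change of the members was -0.02 (-0.0185) under library totals and 0.18 with the length trend removed. That of all genes was -0.134 and 0.016 in the same fits. Wider genes with an unadjusted p under 0.05 numbered 9 without db/m replicates 1 and 3 (6.38%, against 10.7% of all genes). They numbered 8 to 21 without any 1 library, against 15 with all libraries. A fit with the replicate number as a block called 5 genes. It put 4 members under an unadjusted p of 0.05, where 2000 of all 17411 genes were under it. Deviations of same-numbered libraries correlated at -0.0882 to 0.0561, not every library correlated best with its own number, and the numbers were not treated as pairs.

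Log2 fold changes of these signs were reversed from those of the report. With at least 1 CPM in 4 libraries, Atg2a was -0.00311 and Hexa -0.000493. Under library totals, Ulk1 was -0.0424, Ulk2 -0.0143, Pik3c3 -0.0738, Atg2a -0.122, Wipi2 -0.0462, Gabarapl1 -0.0407, Nbr1 -0.0299, Mcoln1 -0.023, Ctsa -0.0353, Hexa -0.104 and Tfeb -0.0228. With limma-voom, Atg7 was 0.0244, Lamp2 0.0822, Ctsa -0.0651, Hexa -0.102 and Tfeb -0.0459. Without db/m replicates 1 and 3, Ulk1 was -0.0532, Atg7 0.0445, Atg16l1 -0.0491, Gabarap -0.0378, Optn -0.0272, Lamp1 -0.0275, Lamp2 0.116, Ctsa -0.116, Hexa -0.00187 and Tfeb -0.109. With the length trend removed, Atg4b was 0.0416, Atg7 0.0719, Gabarapl1 -0.0209, Lamp2 0.138 and Hexa -0.0744. Over fits that left out 1 library each, the values ran from -0.0758 to 0.189 for Pik3c3, -0.0778 to 0.104 for Atg2a, -0.109 to 0.00172 for Atg7, -0.00141 to 0.297 for Gabarap, and further ranges were -0.119 to 0.0885 for Lamp2, -0.0643 to 0.143 for Ctsa, -0.116 to 0.141 for Hexa, -0.0917 to 0.188 for Tfeb and -0.14 to 0.0261 for Gaa. The cause of these reversals was not tested.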
